A study of Mus musculus with 14 samples.

Results

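Peroxisomal enzymes, peroxisomal membrane transporters and peroxins, the proteins that build the organelle, were examined in the ileum mucosa of mice that lack the nuclear receptor corepressor NCoR1 in the intestinal epithelium. The members are 32 named genes of the 54532 in the count table. They were listed by symbol, with earlier results of these data known when the list was made. They comprise 19 enzymes and transporters, of which 10 act in peroxisomal beta-oxidation, 5 in transport or in the membrane and 4 in other reactions, and 13 peroxins. Counts were compared between 7 WT mice, which carry the floxed NCoR1 alleles without Cre, and 7 IKO mice, which carry the same alleles together with Cre under the villin promoter. All were male, entered the experiment as young adults and had received a high-fat diet (HFD), with most of its energy from fat, for 15 weeks. The study lists C57 BL 6/J as its mouse strain, and whether the floxed and Cre lines share that background is not given in the sources used here. The mucosa was scraped from the washed ileum, 1 library was made per mouse, and cells in which villin is not active kept NCoR1.

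The peroxisome shortens very long-chain and branched fatty acids and the side chain of bile acid precursors, which mitochondria handle poorly. Its beta-oxidation runs through an acyl-CoA oxidase that gives off hydrogen peroxide, a bifunctional enzyme that hydrates and dehydrogenates, and a thiolase, while catalase removes the peroxide. The enzymes are made in the cytosol and brought in by peroxins, most of them through a short signal at their C-terminus, and other peroxins place membrane proteins or divide the organelle. Several of the enzyme genes are known targets of PPARα, a nuclear receptor that corepressors such as NCoR1 hold down. The study itself measured genes of peroxisomal fatty acid oxidation in the ileum as PPARα targets. The direction of such genes here is therefore not independent evidence. The comparison asks how far the enzymes and the assembly machinery differed between the genotypes.

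Between 14749669 and 21557468 counts were assigned to genes per library. Ncor1, the targeted gene, was at 134.7 ± 31.3 normalized counts (CPM, with library sizes scaled by TMM factors) in WT and 50.6 ± 11.0 CPM in IKO mice (SD, n = 7 each), a log2 fold change of -1.41 (SE 0.18, adjusted p = 0.00051, edgeR). The share of mitochondrially encoded transcripts was 50.3% for IKO 4, 23.9% for WT 3 and 3.49% to 10.3% for all others, and the summed level of 8 smooth muscle markers reached 11502 CPM in WT 4, against 11.4 to 857.0 CPM elsewhere. Of 12 enterocyte markers, all were detected. Their summed level ranged from 26746 CPM in WT 7 to 103773 CPM in WT 2 and from 53452 to 88422 CPM in IKO mice, and 1 of the 12 was called higher. Markers of goblet, Paneth, T and B cells and macrophages were detected as well, so the libraries labelled as epithelial cells hold several cell types. In such bulk RNA, fewer cells of a type and less RNA per cell cannot be told apart.

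Of the 32 members, 10 had a higher level in the IKO group (adjusted p under 0.05 in edgeR's quasi-likelihood test, Benjamini-Hochberg adjustment over 13846 genes) and 0 were lower. That is 31.2% of the members, against 8.67% of all genes tested in either direction, 4.38% higher and 4.28% lower. All 32 passed the filter on low counts. At an unadjusted p under 0.05 there were 16 members, against 4213 of the 13846 genes tested, and of these members Abcd4 was the 1 with a lower level. Neither DESeq2 nor limma-voom called a member lower. The calls over all genes were 607 higher and 593 lower, but 195 and 3185 under total-count scaling, 299 and 3262 when mitochondrially encoded genes were left out of the totals, and 552 and 910 under upper-quartile scaling. Under total counts 4 members were called higher (Acox2, Ehhadh, Acaa1b and Cat) and Abcd4 was called lower. The 10 were Acox2, Ehhadh, Hsd17b4, Acaa1b and Ech1 of beta-oxidation, Abcd3 and Pxmp4 of the membrane, Cat (catalase), and the peroxins Pex11a and Pex19. The median log2 fold change was 0.38 over the members and -0.09 over all genes tested.

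Enzymes and transporters were called higher in 8 of 19 cases (42.1%) with a median log2 fold change of 0.45, and peroxins in 2 of 13 (15.4%) with a median of 0.27. Within the first group the counts were 5 of 10 for beta-oxidation (median 0.64), 2 of 5 for transport (median 0.36) and 1 of 4 for the other enzymes (median 0.42). Of the enzymes and transporters 17 of 19, and of the peroxins 11 of 13, had a fold change above 0. The peroxin direction depends on how libraries are scaled. With total counts in place of TMM factors, which moved the median of all genes to -0.49, 13 of 19 enzymes and transporters and 4 of 13 peroxins lay above 0 while the enzyme median dropped to 0.046 and the peroxin median turned to -0.14. Relative to the median of all genes, the enzymes stood at 0.54 and the peroxins at 0.36 under TMM, and at 0.53 and 0.35 under total counts. The difference between the medians, 0.18 in log2 units, is a description of these gene lists and was not tested. It was 0.056 without WT 6, 0.33 without WT 2 and 0.28 without WT 3, WT 4 and IKO 4.

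**Figure D1:**
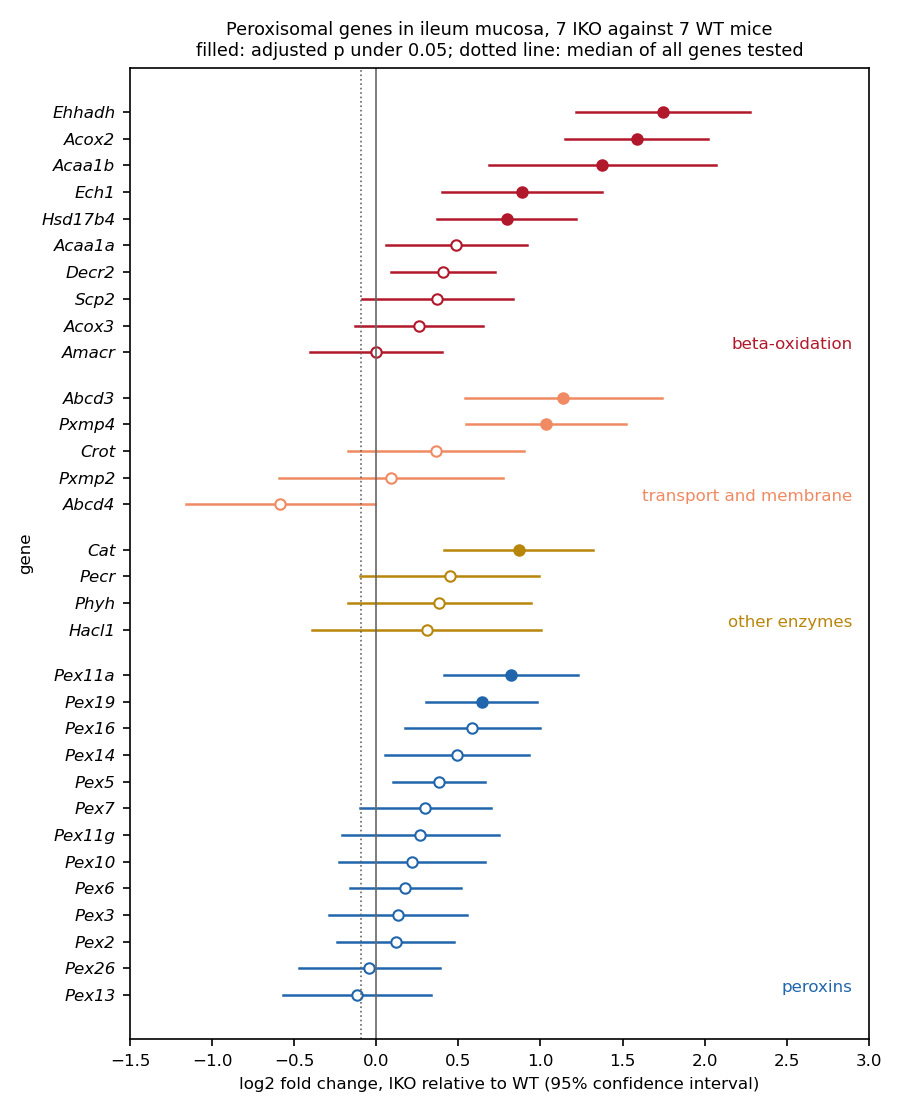
Log2 fold change of the 32 members in IKO relative to WT mice on the horizontal axis, with its 95% confidence interval, 1 gene per line grouped by role. Filled points passed an adjusted p of 0.05 and the dotted line is the median of all genes tested. The 10 filled points range from 0.64 (Pex19) to 1.75 (Ehhadh), and 8 of them are enzymes or transporters. Under scaling by total counts most peroxins lie below 0.

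The oxidase step opens each round of beta-oxidation. Acox2, the oxidase for branched chains and bile acid intermediates (chromosome 14, 8225511 to 8259353, mm10), was at 9.59 CPM in the lowest, 14.3 CPM in the median and 27.1 CPM in the highest WT mouse, and at 38.9, 50.4 and 58.1 CPM in the lowest, median and highest IKO mouse. The genotypes did not overlap. The gene rose by 1.59 on the log2 scale, with a 95% interval of the fold from 2.22 to 4.06 (SE 0.21, adjusted p = 0.00051, edgeR). Acox3, the other branched-chain oxidase, was at 38.6 ± 5.08 CPM in WT and 46.2 ± 13.1 CPM in IKO mice (SD, n = 7), and its log2 fold change of 0.26 did not pass (adjusted p = 0.347, edgeR).

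The bifunctional enzymes do the next 2 reactions by separate stereochemical routes. Ehhadh, the L-bifunctional enzyme (chromosome 16, 21761287 to 21787807, mm10), was at 40.8, 55.5 and 114.3 CPM in the lowest, median and highest WT mouse and at 166.2, 222.4 and 285.0 CPM in the lowest, median and highest IKO mouse. Again the groups were apart. Its fold of 3.36 (95% interval 2.33 to 4.85) was the highest among the members, with a log2 fold change of 1.75 (SE 0.25, adjusted p = 0.00119, edgeR). Hsd17b4, the D-bifunctional enzyme that handles bile acid and branched-chain substrates, had a lowest, median and highest level of 175.0, 223.5 and 364.0 CPM in WT and of 322.7, 426.8 and 514.3 CPM in IKO mice. IKO 6, the lowest of its group, fell below WT 5 and WT 6. The gene rose by 0.79 on the log2 scale (SE 0.20, adjusted p = 0.0273, edgeR).

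Thiolases split off the shortened chain. Acaa1b, which the study itself lists among PPARα targets so that its direction is not independent evidence, was at 6.99, 12.9 and 27.6 CPM (lowest, median and highest) in WT and at 19.1, 37.7 and 67.1 CPM in IKO mice. It lies on chromosome 9 from 119148023 to 119157093 (mm10). IKO 1, at the bottom of its group, was below WT 2 and WT 4. The log2 fold change was 1.38 (SE 0.33, adjusted p = 0.0206, edgeR). Its paralogue Acaa1a was far more abundant, at 367.8 ± 105.6 CPM in WT and 515.3 ± 103.6 CPM in IKO mice (SD, n = 7), with a log2 fold change of 0.49 that did not pass in edgeR (adjusted p = 0.125) but did in limma-voom with sample weights (adjusted p = 0.0480). The coding sequences of these paralogues are identical at 1231 of 1275 bases (96.5%), and how reads that match both were counted is not given in the sources used here, so their separate values are uncertain. Scp2, whose longer product is the thiolase for branched chains and bile acids, was at 740.0 ± 251.4 and 956.9 ± 126.2 CPM (SD, n = 7), with a log2 fold change of 0.37 (adjusted p = 0.255, edgeR).

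Auxiliary enzymes prepare chains that have double bonds or methyl branches. Ech1, which isomerizes dienoyl-CoA and is also found in mitochondria, was at 123.4, 160.8 and 238.0 CPM in WT and at 188.9, 292.7 and 532.5 CPM in IKO mice (lowest, median and highest). Only WT 4 reached into the IKO range, above IKO 3 and IKO 6. The gene rose by 0.89 on the log2 scale (SE 0.23, adjusted p = 0.0305, edgeR). Decr2, the peroxisomal dienoyl-CoA reductase, was at 45.4 ± 7.60 CPM in WT and 60.1 ± 10.3 CPM in IKO mice, with a log2 fold change of 0.41 that missed the threshold in edgeR (adjusted p = 0.0888) and passed it in DESeq2 (adjusted p = 0.0409). Amacr, the racemase for methyl-branched acyl-CoA, was at 14.9 ± 3.99 and 14.9 ± 2.35 CPM, and the 95% interval of its fold was 0.756 to 1.32.

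The C-terminal import signal is visible in the coding ends of several of these genes. In 7 of the 32 members, all of them enzymes or transporters, the last 3 codons before the stop spell Ser, Ala or Cys, then Lys, Arg or His, then Leu or Met. The same holds for 112 of 21480 protein-coding genes (0.521%) and for 0 of 13 peroxins. It was present in Ehhadh, Hsd17b4, Scp2, Ech1, Decr2, Crot and Pecr, of which the first, the second and Ech1 were called higher. Of all enzymes and transporters, 7 of 19 (36.8%) had it and 8 of 19 (42.1%) were called higher. The other enzymes end differently, and the absence of these codons says nothing about other import routes. Below are the last 30 coding bases of 6 of the 7 genes with these codons, 5′ to 3′ from GENCODE vM21 (GRCm38). They are shown because these 6 share this end while the peroxins do not. Capitals mark the 3 codons before the stop.
Ehhadh, chr16:21762084-21762113, minus strand: ttggcaggaccccatagcAGCAAACTGtga
Scp2, chr4:108044750-108044779, minus strand: cagcttcagccgggcaaaGCTAAGCTGtga
Ech1, chr7:28832079-28832108, plus strand: acaaaaagcatcaccttcTCCAAGCTCtga
Decr2, chr17:26082876-26082905, minus strand: gagtttgaatccttctctGCTAAGCTGtag
Crot, chr5:8966852-8966881, minus strand: atacagctgatgaacaccGCTCATCTTtag
Pecr, chr1:72259348-72259377, minus strand: gaatcttttaagaagaaaGCCAAGCTCtaa

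Substrates enter through ABC transporters of the peroxisomal membrane. Abcd3, which takes in branched and long-chain acyl-CoA and bile acid precursors (chromosome 3, 121758774 to 121815302, mm10), was at 173.2, 284.4 and 569.8 CPM in WT and at 366.4, 798.9 and 1067 CPM in IKO mice (lowest, median and highest). The lowest IKO value came from IKO 4, the library with the high mitochondrial share, and every other IKO mouse was above every WT mouse. The log2 fold change was 1.14 (SE 0.28, adjusted p = 0.0251, edgeR). Abcd4 is grouped with these transporters by family but is known for moving cobalamin out of lysosomes. It was at 23.9, 32.6 and 72.9 CPM in WT and at 10.4, 25.3 and 32.4 CPM in IKO mice, and the highest WT value, from WT 2, stood apart from the rest. The log2 fold change of Abcd4 was -0.58 and did not pass (adjusted p = 0.160, edgeR). It was -0.30 without WT 2 (adjusted p = 0.343, edgeR) and passed under total-count scaling (-0.88, adjusted p = 0.0379, edgeR). That scaling called 3185 of 13846 genes lower.

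The other membrane and export genes have separate roles. Pxmp4, a small membrane protein of little known function, was at 20.9, 26.3 and 33.2 CPM in WT and at 34.5, 52.9 and 100.3 CPM in IKO mice (lowest, median and highest). No mouse crossed between the groups, although IKO 2 was well above the rest. The log2 fold change was 1.03 (SE 0.23, adjusted p = 0.0156, edgeR). Crot, which turns shortened acyl-CoA into carnitine esters for the mitochondria, was at 129.2 ± 38.1 and 166.1 ± 62.8 CPM (SD, n = 7), with a log2 fold change of 0.36 (adjusted p = 0.341, edgeR). Pxmp2, a membrane channel, was near the lower end of detection at 2.21 ± 1.12 and 2.34 ± 0.453 CPM, with 15 to 77 counts per library.

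Catalase, which breaks down the hydrogen peroxide of the oxidases, also separated the genotypes. Cat (chromosome 2, 103453849 to 103485160, mm10) was at 145.3, 309.4 and 435.1 CPM in the lowest, median and highest WT mouse and at 477.6, 553.7 and 684.5 CPM in the lowest, median and highest IKO mouse. The groups did not overlap, and the gene rose by 0.87 on the log2 scale (SE 0.21, adjusted p = 0.0248, edgeR). The genes of alpha-oxidation, which takes phytanic acid down by 1 carbon, did not pass. Phyh, the first enzyme of that route, was at 219.5 ± 108.5 and 286.6 ± 51.6 CPM (adjusted p = 0.330, edgeR). Hacl1, its lyase, had only 12 to 36 counts per library (adjusted p = 0.548, edgeR), and the 1.82-fold difference seen in Cat lay within its 95% interval. Pecr, a trans-2-enoyl-CoA reductase, was at 6.84 ± 2.44 and 9.36 ± 2.74 CPM (adjusted p = 0.247, edgeR).

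**Figure D2:**
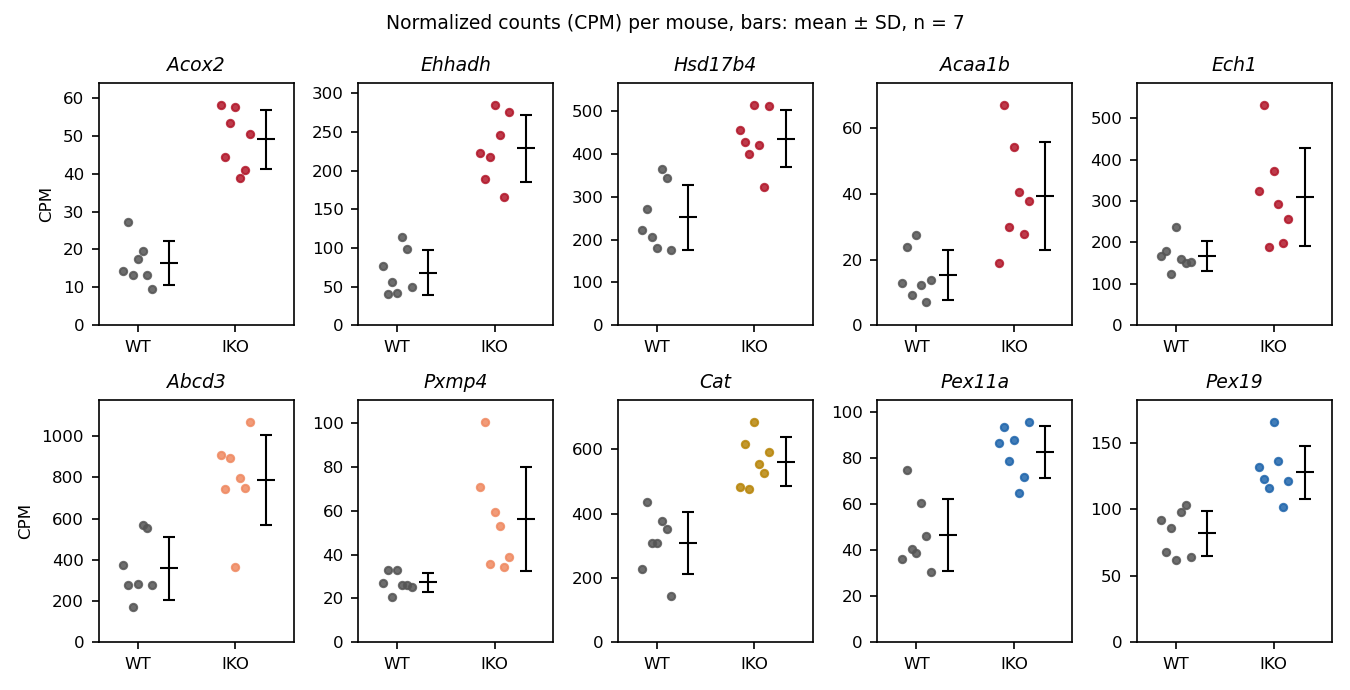
CPM of each mouse for the 10 members that passed, 1 panel per gene, WT in grey and IKO in color, with the mean ± SD of 7 mice. In the panels of Acox2, Ehhadh, Pxmp4 and Cat the lowest IKO mouse lies above the highest WT mouse, while in the other 6 panels the genotypes overlap.

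Complete separation of the genotypes with IKO above WT was thus seen for 4 of 32 members, against 1.83% of all genes tested. All 4 were enzymes or transporters. Complete separation fixes the exact two-sided permutation p of the mean log2 CPM at 0.000583, the smallest value that 7 against 7 mice allow. For these 4 the test therefore adds nothing to the separation. For the other 6 that were called, the same test gave p between 0.00117 (Pex19) and 0.00408 (Abcd3). Those values are unadjusted, and edgeR had already selected the genes on the same counts, so they are no further support.

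Among the peroxins, those that act in division and in membrane protein insertion held both called genes. Pex11a, which elongates the membrane before division and is another gene known to respond to PPARα (chromosome 7, 79735957 to 79743131, mm10), was at 30.7, 40.5 and 75.05 CPM in WT and at 64.8, 86.7 and 95.6 CPM in IKO mice (lowest, median and highest). WT 2 was the only WT mouse inside the IKO range. Its log2 fold change was 0.82 (SE 0.19, adjusted p = 0.0194, edgeR). Pex11g, a second division factor, was much lower, at 5.98 ± 1.74 and 7.20 ± 1.75 CPM, with a log2 fold change of 0.27 (adjusted p = 0.435, edgeR).

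Pex19, Pex3 and Pex16 bring membrane proteins to the organelle, Pex19 as the soluble carrier and the other two as its docking site. Pex19 was at 62.2, 86.0 and 102.8 CPM in WT and at 101.9, 123.0 and 165.3 CPM in IKO mice (lowest, median and highest). The ranges met only at the margin, where WT 6 was slightly above IKO 6. The gene rose by 0.64 on the log2 scale (SE 0.16, adjusted p = 0.0248, edgeR). Pex16 was at 53.3 ± 10.6 and 79.9 ± 25.4 CPM with a log2 fold change of 0.59, short of the threshold in edgeR (adjusted p = 0.0675) but past it in DESeq2 (adjusted p = 0.0266) and limma-voom (adjusted p = 0.0242). Pex3 was at 10.3 ± 2.97 and 11.3 ± 1.67 CPM (log2 fold change 0.13, adjusted p = 0.684, edgeR).

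Factors that import matrix enzymes did not pass in edgeR. Pex5, the receptor for the C-terminal signal, was at 45.4 ± 7.47 CPM in WT and 59.1 ± 6.05 CPM in IKO mice, with all 7 IKO mice above the WT median and a log2 fold change of 0.38 (adjusted p = 0.0768, edgeR). DESeq2 called it (adjusted p = 0.0224). Pex7, the receptor for an N-terminal signal, was at 20.2 ± 5.81 and 24.9 ± 3.20 CPM (log2 fold change 0.30, adjusted p = 0.286, edgeR). At the docking site, Pex14 was at 15.8 ± 2.81 and 22.1 ± 6.49 CPM (log2 fold change 0.49, adjusted p = 0.128, edgeR) and Pex13 at 27.6 ± 5.66 and 25.4 ± 8.49 CPM (log2 fold change -0.12, adjusted p = 0.741, edgeR). These partners thus had estimates of opposite sign, and neither differed from 0 by its adjusted p.

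The recycling of receptors needs a ubiquitin ligase, of which Pex2 and Pex10 are parts, and an ATPase motor with Pex6, held at the membrane by Pex26. Pex2 was at 38.4 ± 6.77 and 41.7 ± 9.42 CPM, and the 95% interval of its fold was 0.848 to 1.39. Pex10 was at 5.94 ± 1.45 and 6.91 ± 1.86 CPM, with 10.96 CPM in IKO 2 and at most 7.21 CPM in the other IKO mice. Neither gene passed (adjusted p = 0.661 and 0.504, edgeR). Pex6 was at 55.1 ± 12.1 and 62.3 ± 10.7 CPM (adjusted p = 0.475, edgeR), and Pex26 at 13.3 ± 3.39 and 12.9 ± 2.88 CPM (adjusted p = 0.908, edgeR). Changes of up to 1.39-fold in Pex2, 1.43-fold in Pex6 and 1.31-fold in Pex26 lie inside their intervals.

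Per gene length, enzymes and transporters tended to lie higher than peroxins, with overlapping ranges. In FPKM, the mean over WT mice had a median of 19.4 across enzymes and transporters (from 0.238 for Hacl1 to 208.2 for Scp2) and of 5.82 across peroxins (from 1.64 for Pex7 to 29.4 for Pex16). In WT mice the order began with Scp2 at 208.2 ± 71.3, Cat at 115.4 ± 36.4, Phyh at 113.4 ± 55.8 and Acaa1a at 81.4 ± 23.2 FPKM (SD, n = 7). Cat and Phyh lay within each other's spread. The 3 genes with the largest fold started from lower levels, Ehhadh at 22.4 ± 9.75, Acaa1b at 7.55 ± 3.79 and Acox2 at 4.32 ± 1.52 FPKM. In IKO mice they reached 77.1 ± 15.4, 20.2 ± 8.51 and 13.3 ± 2.10 FPKM. Summed over the genes, the mean FPKM of enzymes and transporters was 820.8 in WT and 1352 in IKO mice, and that of peroxins 124.6 and 174.7. The median over peroxins was 5.49 FPKM in IKO mice, against 5.82 in WT. Both medians are the level of Pex13, 1 of the 2 peroxins with a fold change below 0, so they do not describe the other peroxins. The fold change was above 0 for 11 of 13. Pex16, Pex19 and Pex11a had the largest differences in mean FPKM (29.4 to 45.1, 21.0 to 33.6 and 14.4 to 26.1).

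**Figure D3:**
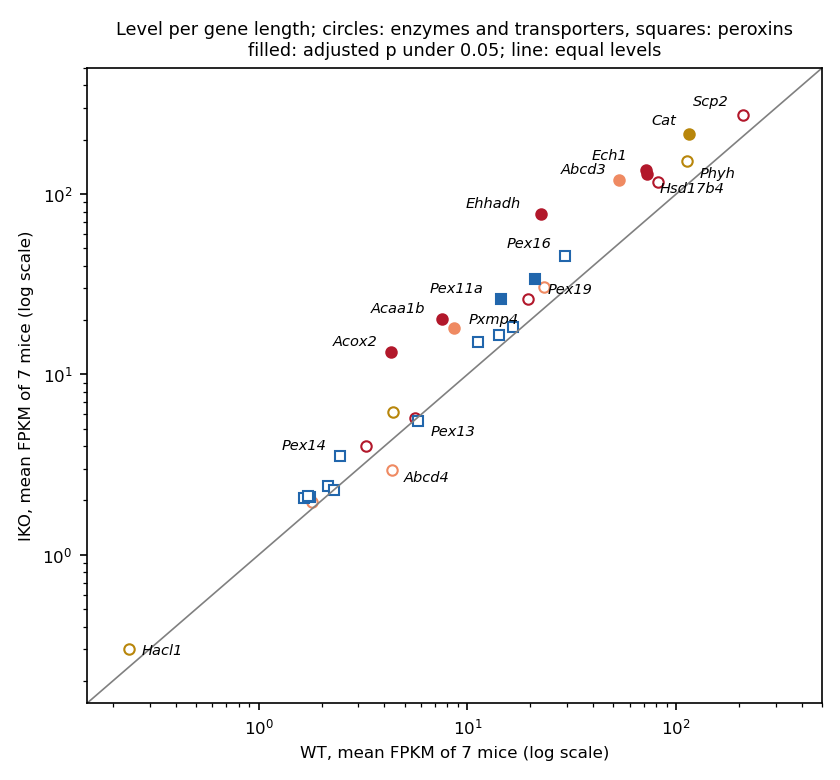
Mean FPKM of 7 IKO mice against mean FPKM of 7 WT mice, both on log scales, 1 point per member (circles are enzymes and transporters, squares peroxins, and filled points passed an adjusted p of 0.05). Enzymes reach 208.2 FPKM in WT (Scp2) and peroxins 29.4 (Pex16). Ehhadh, Acaa1b and Acox2 stand farthest above the line of equal levels, and Abcd4 lies below it.

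Genes grouped under the same step or family were set against each other within each mouse, where the scaling of the library cancels. Genes of a group need not catalyze the same reaction. All 16 pairs of members within a group were compared, with p adjusted over the 16 pairs. The test was an exact two-sided permutation test of the log2 count ratio (7 against 7 mice). The pairs were drawn up after the single values were known. Ehhadh relative to Hsd17b4 was higher in all IKO than in all WT mice, with a log2 ratio of -1.94 ± 0.39 in WT and -0.94 ± 0.13 in IKO (SD, n = 7, exact permutation p = 0.000583, adjusted 0.00466). The L-bifunctional gene thus rose more than the D-bifunctional gene. Acox2 relative to Acox3 went from -1.30 ± 0.53 to 0.13 ± 0.61 (exact permutation p = 0.00117, adjusted 0.00622).

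Abcd3 relative to Abcd4 was also separate between the genotypes, at a log2 ratio of 3.33 ± 0.76 in WT and 5.07 ± 0.19 in IKO mice (exact permutation p = 0.000583, adjusted 0.00466). Abcd3 and Abcd4 share a family but, by their known roles, not a step. These 3 pairs passed in each of the 14 fits that left out 1 mouse. The other 13 did not pass with all mice. Acaa1a over Acaa1b fell short, with a difference of -0.91 (adjusted p = 0.0802, exact permutation) that reached 0.0233 without WT 4 and 0.0350 without IKO 1. Among peroxin pairs the smallest adjusted p was 0.0629, for Pex13 over Pex14 (difference -0.61, exact permutation), which passed without WT 4 (0.0357), IKO 6 (0.0233) or IKO 7 (0.0256). Pex3 over Pex19 differed by -0.48 (adjusted p = 0.0946, exact permutation) and passed without WT 3 (0.0117), and Acaa1b over Scp2 (0.0886) and Ech1 over Decr2 (0.112) passed without WT 4 (0.0242 and 0.0480). Pex11a over Pex11g differed by 0.60 (adjusted p = 0.110, exact permutation), so that a greater rise of Pex11a than of Pex11g was not shown.

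The typical shift of both roles was also followed mouse by mouse, as the median log2 CPM of the genes relative to their WT mean. For enzymes and transporters it ran from -0.44 in WT 7 to 0.38 in WT 2, and from 0.40 in IKO 3 to 0.81 in IKO 2. Every IKO mouse was above every WT mouse by this measure, though IKO 3 only narrowly. For peroxins the WT mice ran from -0.28 to 0.34 and the IKO mice from 0.13 in IKO 4 to 0.48, so the groups overlapped. The enzyme shift exceeded the peroxin shift in all 7 IKO mice, by 0.05 to 0.61, and lay between 0.24 below and 0.12 above it in WT mice. In IKO 4, which had the largest gap of 0.61, 6 of 13 peroxins were at their lowest IKO level.

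**Figure D4:**
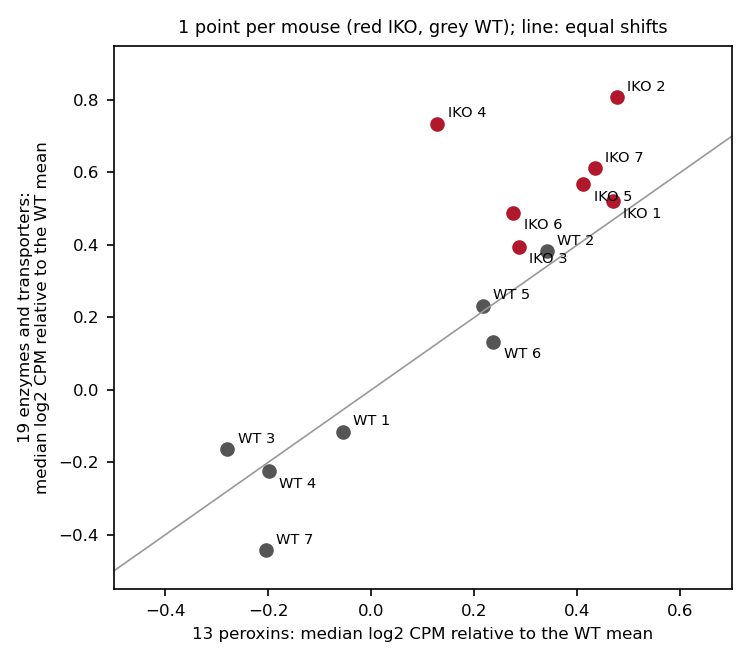
Median log2 CPM relative to the WT mean of 19 enzymes and transporters (vertical axis) against that of 13 peroxins (horizontal axis), 1 point per mouse, with a line of equal shifts. All 7 IKO mice lie above the line, from 0.40 to 0.81 on the vertical axis, and WT mice lie from -0.44 to 0.38 on both sides of it. Positions on both axes depend on TMM scaling, under which peroxins shifted up.

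The WT mice differed among themselves in both enterocyte markers and members. WT 2, with the highest enterocyte sum of 103773 CPM, had the highest WT level of 8 of 19 enzymes and transporters and of 7 of 13 peroxins. WT 7, with the lowest sum of 26746 CPM, had the lowest WT level of 9 of 19 enzymes and transporters and of 3 of 13 peroxins. The order was not shared throughout. WT 4, with the second highest WT sum of 71056 CPM, had shifts of -0.22 for enzymes and transporters and -0.20 for peroxins, and WT 3 held the lowest WT level of 6 of 13 peroxins. The enterocyte list had a median log2 fold change of 0.34 between the genotypes, and the members one of 0.38. That list includes Fabp1 and Fabp2, which the study reports as regulated by PPARα in the ileum. Its level is therefore not a measure of enterocyte content alone. The part of enterocyte content in the differences between genotypes was not tested.

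**Figure D5:**
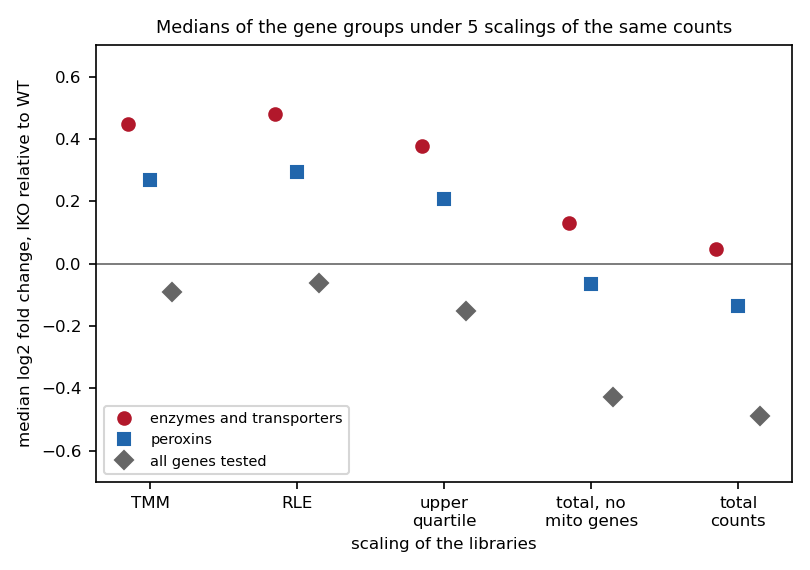
Median log2 fold change of 19 enzymes and transporters, 13 peroxins and all genes tested under 5 ways to scale the same libraries. The enzymes lie above the peroxins and the peroxins above all genes in each. The peroxin median is above 0 under TMM (0.27), RLE and upper-quartile scaling and below 0 under total counts with (-0.14) and without (-0.07) the mitochondrially encoded genes.

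The calls differ in how much they rest on single mice. Acox2, Ehhadh and Acaa1b passed in all 28 alternatives run, with adjusted p up to 0.0103, 0.0136 and 0.0498. Without WT 3, WT 4 and IKO 4, the libraries that stand apart, 4 members passed where 3.08% of all genes did. They were these 3 and Abcd3 (log2 fold changes 1.51, 1.53, 1.41 and 1.07). The other 6 kept positive values there, Hsd17b4 0.62, Ech1 0.88, Pxmp4 1.01, Cat 0.82, Pex11a 0.72 and Pex19 0.52, with adjusted p (edgeR) from 0.0639 to 0.124.

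Leaving out 1 mouse at a time changed the number called from 10 to between 5 (without IKO 5) and 12 (without WT 2), and to 6 without WT 7 or without IKO 1. The share of all genes called moved as well, from 8.67% to 3.65% without IKO 5, 3.74% without IKO 1, 4.32% without WT 7 and 9.76% without WT 2. Enzymes and transporters called fell from 8 to 4 without IKO 5 and to 5 without WT 7 or IKO 1. Peroxins called fell to 1, Pex11a, without IKO 5, WT 7 or IKO 1 and rose to 4 without WT 2, with Pex5 and Pex16 added. Where a call was lost the adjusted p (edgeR) stayed close to the threshold. Hsd17b4 was lost without WT 3, WT 4, WT 7, IKO 1, IKO 5 or IKO 7 (0.0509 to 0.0565). Ech1 was lost without WT 1, WT 3, WT 7, IKO 1, IKO 2, IKO 4 or IKO 5 (0.0502 to 0.0644), Abcd3 without WT 7, IKO 1 or IKO 5 (0.0525 to 0.0552), Pex19 without the same 3 (0.0518 to 0.0560) and Cat without IKO 5 (0.0510). Pex14 passed without IKO 4 (0.0442), and Pex5 (0.0425) and Pex16 (0.0499) without WT 2.

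Promoters were searched for the direct repeat that PPARα binds with its partner RXR, as AGGTCA, 1 base, AGGTCA on both strands, allowing 2 changes in the 12 compared bases. RefSeq windows (GRCm38.p6) from 250 bases before to 50 after the start were matched for 26 members. The repeat was present in 2 of 26 members, against 4.4% of 27025 genes with such a window and 3.92% of those tested. The 2 were Acox2 and Cat, and whether such matches go with the differences between genotypes was not tested. The windows of 11 peroxins held 0. A single AGGTCA stood in 4 of 26 members and in 18.1% of all genes. A match is only a run of letters, and its absence from so short a window says nothing of the receptor. Shown are 30 bases around both matches, read in the direction of the gene, with the repeat in capitals. Counted from the start site of the window, they lie at 10 to 22 in Acox2, which is after the start, and at -204 to -192 in Cat. Acox2 also had a window around another annotated start, where the closest run needed 3 changes.
Acox2, chr14:8258809-8258838, minus strand: gctgtcccAGGACAGAGGTGAgtcaagagt
Cat, chr2:103485336-103485365, minus strand: actctcagAGGTCAGAGAACAccagcaggg

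Outside the members, 51 of 60 other peroxisomal genes were tested, and 12 were called higher and 1 lower (25.5%, against 8.67% of all genes), with a median log2 fold change of 0.22. The 4 with the largest change among those called were as follows. Pipox, which oxidizes pipecolic acid, fell from 18.8 ± 6.21 to 6.17 ± 0.721 CPM (log2 fold change -1.60, SE 0.20, adjusted p = 0.000397, edgeR). Acot4, a thioesterase that releases succinate and other dicarboxylic acids from CoA, rose from 44.3 ± 12.01 to 129.4 ± 18.9 CPM (log2 fold change 1.55, SE 0.18, adjusted p = 0.000238, edgeR). Pmvk, phosphomevalonate kinase of cholesterol synthesis, rose from 12.5 ± 5.70 to 29.8 ± 7.28 CPM (adjusted p = 0.0171, edgeR), and Gstk1, a glutathione transferase, from 30.8 ± 14.3 to 69.1 ± 20.9 CPM (adjusted p = 0.0277, edgeR). In all 4 the genotypes did not overlap. Complete separation was seen for 10 of the 51 genes with IKO above WT and for 1 with IKO below. Over all 13846 genes tested it was seen for 254 and 175. A fold change above 0 was seen for 34 of these 51 genes (66.7%), against 28 of 32 members (87.5%) and 43.5% of all genes tested, a difference that was not tested.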

How the data were processed

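Total RNA of ileum mucosa was sequenced as 150-bp paired-end reads. According to the authors, reads were aligned with HISAT2 2.0.5 and counted with featureCounts 1.5.0-p3, and the submitters' processing notes name mm10 and DESeq2 1.16.1. Strand and multimapping settings are not given in the sources used here. The deposited gene counts are raw whole numbers. The deposited FPKM equal counts per gene length divided by DESeq2 size factors times a constant, as checked on the values.

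Low counts were removed by filterByExpr, libraries were scaled by TMM, and genotype was tested as a single term by edgeR's quasi-likelihood method (edgeR 4.0.16 under R 4.3.3). The adjusted p threshold was 0.05, over 13846 genes. SE is the log2 fold change divided by the square root of F. Sequences came from RefSeq promoter windows and GENCODE vM21. Precision is set by 14749669 to 21557468 counts per library and 7 mice per genotype, and the libraries are not stated to be independent of cage or day.

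Alternatives were DESeq2 1.42.0, RLE, the absence of a filter, a minimum of 10 counts per sample, limma-voom with sample weights (limma 3.58.1), mitochondrially encoded genes removed, limma applied to log2(FPKM + 1) and log2(FPKM + 0.1) where 7 or more samples exceeded 0.5 FPKM, the first also unfiltered, the replicate number as a block, each mouse left out, and WT 3, WT 4 and IKO 4 left out. Scaling by total counts, with and without mitochondrially encoded genes, upper-quartile scaling and the within-mouse ratios were chosen after seeing the data. Same-numbered mice did not deviate together (correlations -0.31 to 0.23, 0 of 7 closest to their own number), so numbers were not read as pairs. The method was tested on simulated counts. Apart from planted changes, these had the same mean profile and dispersion in all libraries. Differences in composition between libraries, such as in the mitochondrial share, were therefore not tried.

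All members are named, with Ncor1 and the 4 other peroxisomal genes of largest absolute log2 fold change among those called. Members and lists were chosen with earlier results of these data known. Other measurements of the study were not used here, and some single genes are left out.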

Additional observations from a re-analysis of the deposited data

Results flagged for a closer look

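In 64 groups of 7 mice (32 members in both genotypes), the gap between the highest or lowest mouse and its neighbor was set against the range of the group. It exceeded Dixon's 95% critical value for 7 samples in 2 groups, where chance alone gives about 1 in 20. Abcd4 was high in WT 2, with a gap of 0.778 of the range (72.9 CPM, against 23.9 to 34.8 CPM in the other WT mice). Pex10 was high in IKO 2, with a gap of 0.716 of the range (10.96 CPM, against 5.73 to 7.21 CPM in the other IKO mice). Neither gene passed the test between the genotypes in edgeR with TMM scaling, and Abcd4 passed as lower in IKO mice under scaling by total counts, with and without mitochondrially encoded genes (adjusted p = 0.0379 and 0.0145, edgeR). Those scalings called 3185 of 13846 and 3262 of 13928 genes lower.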

How the results depend on the processing

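Without a filter on low counts 508 genes, 6 members, 5 enzymes and transporters and 1 peroxin passed. DESeq2 called 2571 genes and 4 peroxins, limma-voom 1889 genes, and limma on log2(FPKM + 1) without a filter 614 genes. With the replicate block, 362 genes, 5 members (5 enzymes and transporters, 0 peroxins) and 7 other peroxisomal genes passed. The members lost under the block were Hsd17b4, Abcd3, Cat, Pex11a and Pex19. Without WT 3, WT 4 and IKO 4 the counts were 433 genes, 4 members, 4 enzymes and transporters, 0 peroxins and 7 other peroxisomal genes, and Pex3 was at -0.041. With each mouse left out in turn, between 515 and 1371 genes, 5 and 12 members, 4 and 8 enzymes and transporters, and 1 and 4 peroxins passed. The difference between the medians of the roles was 0.18, between 0.056 (without WT 6) and 0.33 (without WT 2) in those fits, and 0.33 and 0.32 on log2(FPKM + 1) with and without a filter. The cause was not tested.

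Scaling by total counts called 3380 genes, 5 members (Abcd4 lower), 4 enzymes and transporters, 0 peroxins and 7 other peroxisomal genes, and 3561 genes and 1 peroxin without mitochondrially encoded genes. The median of all genes moved to -0.49 and -0.43. The peroxin median turned to -0.14 and -0.066 (without mitochondrially encoded genes). With all counts, Acox3 was at -0.11, Pxmp2 at -0.31, Hacl1 at -0.0062, Pecr at -0.028, Pex2 at -0.25, Pex3 at -0.26, Pex5 at -0.0017, Pex6 at -0.20, Pex7 at -0.14, Pex10 at -0.17 and Pex11g at -0.10. Without the mitochondrially encoded genes, Acox3 was at -0.088, Pxmp2 at -0.295, Pex2 at -0.21, Pex3 at -0.19, Pex6 at -0.15, Pex7 at -0.035, Pex10 at -0.093 and Pex11g at -0.066. None of these passed in either scaling. Values near 0 changed sign elsewhere too. The log2 fold change of Amacr, at -0.00057, was 0.033 with DESeq2 and with the replicate block, 0.029 with RLE, 0.0072 without a filter, 0.0026 without mitochondrially encoded genes, 0.056 on log2(FPKM + 1) with and without a filter, 0.071 on log2(FPKM + 0.1), and between -0.097 and 0.068 with a mouse left out. Pex26 was at 0.0020 on log2(FPKM + 1) with and without a filter, 0.0088 on log2(FPKM + 0.1), and between -0.14 and 0.033 with a mouse left out. Pxmp2 was between -0.065 and 0.33 with a mouse left out. The log2 ratio differences of Pex5 over Pex7 (-0.046 to 0.17), Pex2 over Pex10 (-0.19 to 0.077) and Pex16 over Pex19 (-0.24 to 0.036) also turned with a mouse left out. Depth limits Hacl1 and Pxmp2 most, with at most 36 and 77 counts per library.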
